A study of Mus musculus with 18 samples.

Results

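The interaction of Dmrt3 loss and Dmrt5 loss was measured in RNA of dissected cortical tissue from C57BL/6 mouse embryos at E12.5. All 18 libraries of the study enter it: 5 of the double KO (Dmrt3-/-;Dmrt5-/-), 4 of Dmrt5 KO (Dmrt5-/-, numbered 1, 2, 4 and 5), 5 of Dmrt3 KO (Dmrt3-/-) and 4 of wild type (WT), taken by the genotype in their titles. The 4 genotypes form a square in which each factor is present or absent. The gene that the labels call Dmrt5 has the current symbol Dmrta2, used here for its transcript. The labels do not describe the alleles, and they do not say which libraries share an embryo or a litter; p-values therefore measure the spread between these libraries. In dissected tissue, fewer cells of a type and less RNA per cell cannot be told apart.

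Dmrt3 and Dmrt5 are zinc-finger transcription factors of the doublesex and mab-3 related family, which bind DNA through the shared DM domain. Both are made by progenitors of the pallium, the dorsal part of the telencephalon that forms the cerebral cortex and its medial border, the cortical hem. Pallial progenitors give rise to glutamatergic neurons by way of proneural factors such as Neurog2, while the neighbouring subpallium makes GABAergic neurons under factors such as Gsx2 and the Dlx family. The question put to the square of genotypes is whether the 2 losses add up or whether each factor covers for the other.

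The interaction is the log2 level in the double KO minus that in Dmrt5 KO minus that in Dmrt3 KO plus that in WT. At 0, the double KO shows the sum of both single KO effects on the log2 scale, that is, the product of their fold changes. A negative value means that the double KO lay below this additive level. A gene was called when edgeR's quasi-likelihood test gave a Benjamini-Hochberg adjusted p under 0.05 over all 16236 tested genes, and levels are normalised read counts in CPM, the usual unit scaled to library size.

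The targeted transcripts were low where the titles say so. Dmrt3 ranged from 0 to 0.383 CPM in the double KO and from 0.232 to 0.398 CPM in Dmrt3 KO, against 30.3 to 48.5 CPM in Dmrt5 KO and 52.0 to 61.8 CPM in WT. Dmrta2 ranged from 1.66 to 4.90 CPM in the double KO and from 4.31 to 25.1 CPM in Dmrt5 KO, against 155 to 295 CPM in Dmrt3 KO and 159 to 220.3 CPM in WT. Library totals ran from 19602718 to 33072896 counts. Dmrt5 KO replicate 1, which held the 25.1 CPM of Dmrta2, and WT replicate 2 each contained both Xist and Y-linked transcripts, at 26.7 and 111 CPM in that Dmrt5 KO library and at 462 and 13.6 CPM in that WT library. A mean log2 CPM over 13 mesenchyme markers spanned 1.48 to 6.14 in the double KO, 4.51 to 6.02 in Dmrt5 KO, 4.86 to 6.46 in Dmrt3 KO and 5.19 to 6.09 in WT, with the double KO extremes in replicates 5 and 4. Their summed level ran from 86.7 to 2225 CPM in the double KO, 502 to 1822 CPM in Dmrt5 KO, 668 to 2867 CPM in Dmrt3 KO and 854 to 2560.2 CPM in WT. The defining markers Col1a1, Col3a1 and Twist1 were present in all 4 genotypes, and the part of mesenchyme in the results was not tested beyond the refits given with them.

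A small set of genes was lower in the double KO than the single losses add up to, and no gene was called in the other direction. Of 16236 tested genes, 23 were called below additivity, which is 0.142% of them, and 0 were called above it. These 23 were led by genes of glutamatergic neurogenesis. Among them were the neuronal basic helix-loop-helix (bHLH) factors Neurod6 and Neurod2, the pallial homeodomain factor Emx1 and the vesicular glutamate transporter Slc17a7. Others were the proneural factor Neurog2 and the intermediate-progenitor factor Eomes. Over all tested genes the median interaction was -0.01. The median half-width of its 95% interval, which is not adjusted for the number of genes, was 0.67 on the log2 scale, or 1.59-fold. Smaller departures from additivity were mostly not detectable with these libraries. A call also had to pass the adjustment over all tested genes. Larger departures in either direction could therefore stay uncalled. Examples are Rspo3 at -1.95 (edgeR adjusted p = 0.0941) and, above additivity, Dcc at 4.62 (edgeR adjusted p = 0.116). At an unadjusted p under 0.05, 297 genes (1.83%) lay below additivity and 1200 (7.39%) above it. limma-voom called 0 genes above and 25 below, and DESeq2 called 66 above (0.407%) and 61 below (0.376%).

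**Figure D1:**
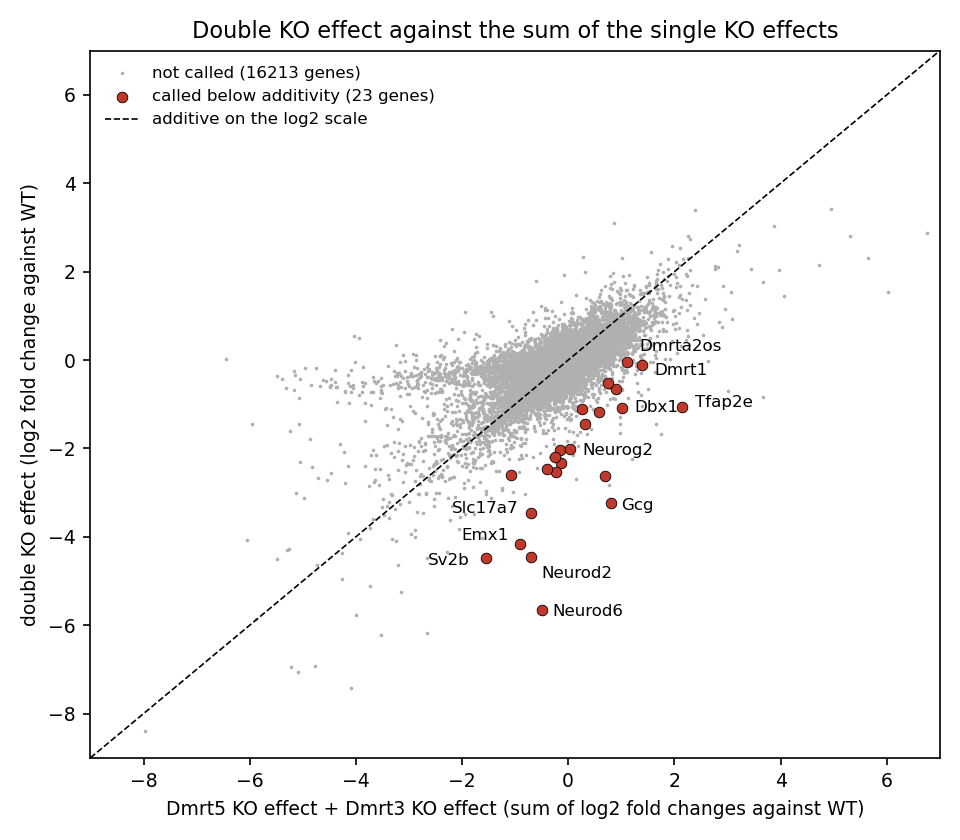
Each point is 1 of 16236 tested genes; the x axis is the sum of the Dmrt5 KO and Dmrt3 KO log2 fold changes against WT, the y axis is the double KO log2 fold change against WT, and the dashed line marks additivity. The 23 called genes (red) all sit below the line, with Neurod6 at -5.66 on the y axis against a sum of -0.50; both axes contain the same WT libraries, so their scatter is shared.

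Most of the 23 genes were called lower in the double KO and in neither single KO. In 20 of the 23, neither single KO was called against WT by the same test. Of these 20, 19 were called lower in the double KO against WT, with Tfap2e the exception. A missing call does not show that a single KO equalled WT. In Dmrt5 KO, for instance, the unadjusted edgeR p was 0.000713 for Emx1 (-1.05 on the log2 scale) and 0.00397 for Sv2b (-1.25). It was 0.640 for Neurog1 (0.11) and 0.748 for Cldn1 (-0.14). Over all tested genes, 3.81% were called lower in the double KO against WT, 1.03% were called in either direction in Dmrt5 KO and 0.0123% in Dmrt3 KO. The double KO was called lower than Dmrt5 KO in 22 of the 23 (0.32% of all genes) and lower than Dmrt3 KO in 22 (1.96%). These comparisons share libraries with the interaction, so their counts describe the shape of the 23 genes and add no test. In 20 of the 23 genes every double KO library lay below every other library, a pattern found in 0.511% of tested genes, and the exceptions were Dmrt1, Dmrta2os and Tfap2e.

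The single KO means stood on different sides of WT. The fitted Dmrt3 KO value lay above WT in 22 of the 23 genes, Sv2b being the exception, while the Dmrt5 KO value lay below WT in 15. In 8 genes (Nrn1, Neurog1, Dbx1, Dmrta2os, Tfap2e, Gcg, Tfap2c and Tmem163) both single KO values lay above WT. For 12 of the 23 the additive level was therefore above WT while the double KO was below it. Except for Dmrt1 in Dmrt3 KO and for Prr15 and Dmrta2os in Dmrt5 KO, none of these single KO differences from WT was called. The 23 were chosen on a negative value of a contrast that subtracts both single KO levels and adds that of WT. This choice itself favours single KO values above WT, so these counts describe the 23 genes and add no test. The matching shares over all tested genes were not counted.

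Emx1, which encodes a homeodomain factor of dorsal telencephalic progenitors and their neurons, had an adjusted p among the lowest. Emx1 (chr6:85187438-85204462, GRCm38) was measured at 12.4, 7.99, 9.83, 7.75 and 4.602 CPM in the double KO and 106, 65.2, 59.2 and 64.3 CPM in Dmrt5 KO. In Dmrt3 KO, Emx1 was at 236, 164, 149, 143 and 151 CPM, and in WT at 139.8, 180.0, 179 and 113 CPM. Every double KO library lay below every library of the other genotypes, and the Dmrt5 KO libraries lay below all Dmrt3 KO and WT libraries, while Dmrt3 KO and WT overlapped. The additive level for the double KO was 81.2 CPM against a measured mean of 8.51 CPM. The interaction of Emx1 was -3.26 (SE 0.35, 95% interval -4.001 to -2.51, edgeR adjusted p = 0.000328). Emx1 fell by 4.17 on the log2 scale in the double KO against WT (edgeR adjusted p = 3.16e-08), while neither the Dmrt5 KO value of -1.05 (edgeR adjusted p = 0.0603) nor the Dmrt3 KO value of 0.14 (edgeR adjusted p = 0.791) was called.

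Of 16 tested genes of pallial progenitors, 4 were called below additivity (Emx1, Neurog2, Neurog1 and Tfap2c), beside 0.142% of all tested genes, and 0 above. The median interaction over the 16 was -0.48, beside -0.01 over all tested genes. Several uncalled members fell in the double KO against WT with interactions nearer to 0. Lhx2, a LIM-homeodomain factor that specifies cortical identity, averaged 257 ± 39.1 CPM in the double KO, 355 ± 24.9 CPM in Dmrt5 KO, 601 ± 55.2 CPM in Dmrt3 KO and 755 ± 50.1 CPM in WT (SD). Its single KO effects summed to -1.42 and the double KO effect was -1.56 (edgeR adjusted p = 2.03e-07), leaving an interaction of -0.14 (95% interval -0.48 to 0.20). Emx2, the paralog of Emx1, had an interaction of -0.63 (95% interval -1.13 to -0.12), and Fezf2, which specifies subcerebral projection neurons, one of -0.83 (SE 0.18, edgeR adjusted p = 0.106), neither of them called by edgeR. DESeq2 called Fezf2 (adjusted p = 0.00304) and 6 of the 16 in all, beside 0.376% of all tested genes, with Otx1 the other addition.

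For Pax6, Sox2 and Gli3 of that list the 95% interval of the interaction included 0. Pax6, a paired-homeodomain factor of cortical radial glia, rose in the double KO against WT, by 0.85 (edgeR adjusted p = 0.00208) on the log2 scale, with an interaction of 0.05 (95% interval -0.40 to 0.50). The sign of this small value was not stable, and without double KO replicate 5 it was -0.12. Pax6 had 287, 275, 283, 290.4 and 459 CPM in the 5 double KO libraries, so that replicate 5 stood apart. The interaction of the progenitor factor Sox2 was -0.01 (95% interval -0.34 to 0.31). Gli3, a transcription factor of the hedgehog pathway that acts mainly as a repressor in the dorsal telencephalon, had 0.53 (95% interval -0.04 to 1.09).

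**Figure D2:**
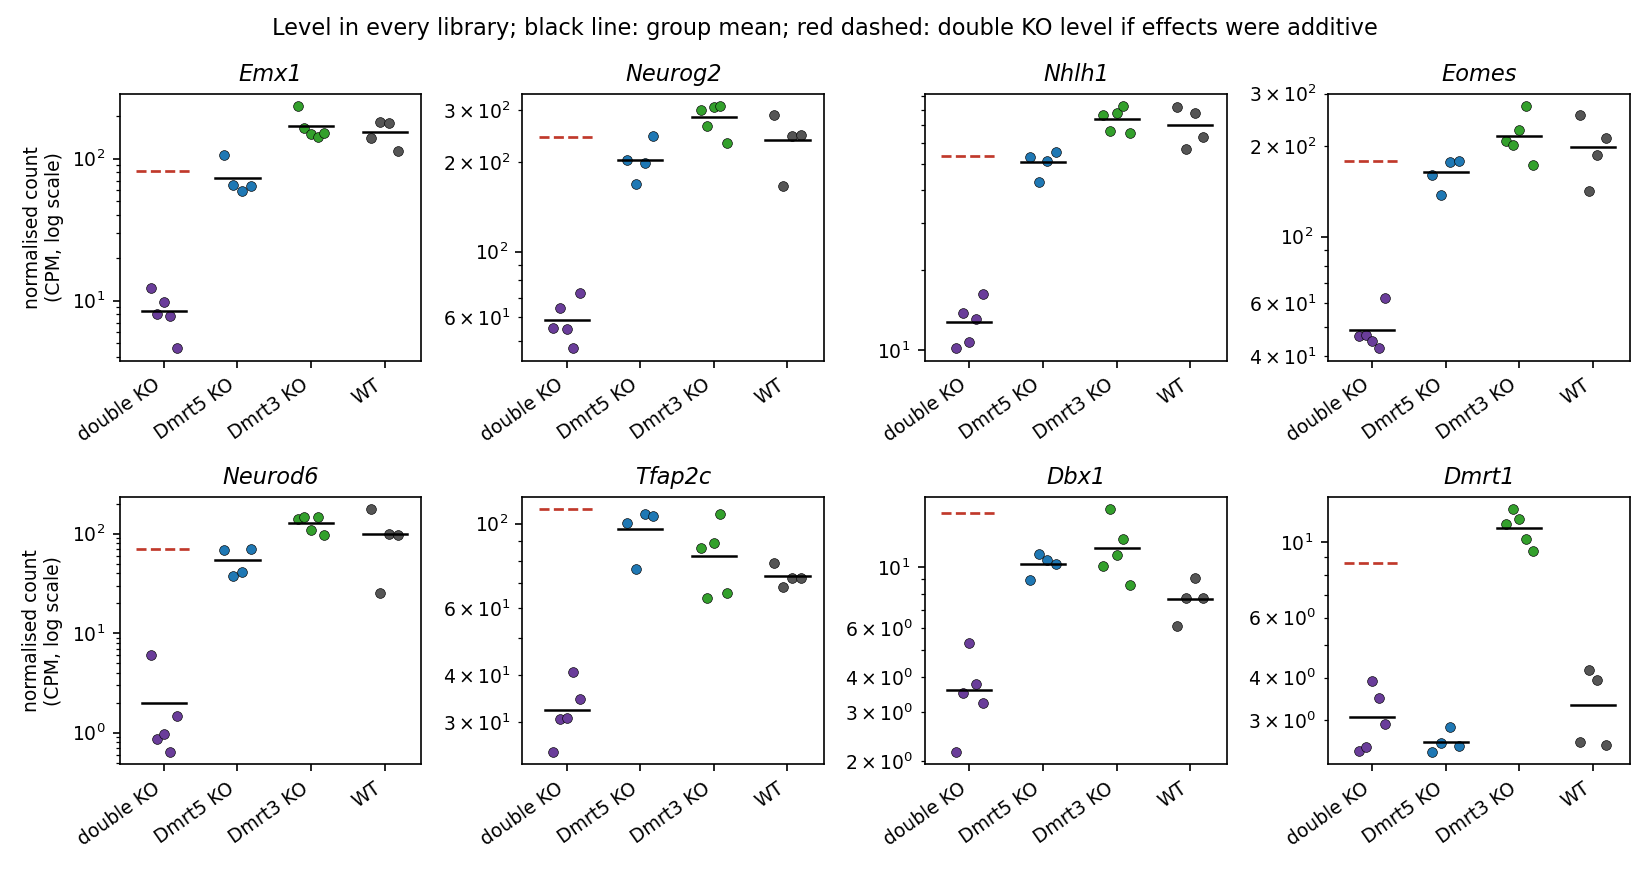
Normalised read count (CPM, log axis) of 8 genes in every library, with points for libraries grouped as double KO, Dmrt5 KO, Dmrt3 KO and WT, black lines for group means and a red dashed line for the double KO level if both single effects were additive. For Emx1, Neurog2, Nhlh1, Eomes, Neurod6, Tfap2c and Dbx1 all 5 double KO libraries lie below the dashed line and below every other library; for Dmrt1 they lie below the dashed line, within the range of WT and Dmrt5 KO.

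The proneural bHLH factors, which commit progenitors to neuronal differentiation, were lowest in all 5 double KO libraries. Neurog2 (chr3:127633135-127635631) had 55.4, 64.3, 54.9, 47.1 and 72.8 CPM in the double KO and 203, 169.6, 199 and 245 CPM in Dmrt5 KO. In Dmrt3 KO, Neurog2 was at 302, 265, 308, 311 and 233 CPM, and in WT at 289.5, 167, 246 and 248 CPM. The 3 other genotypes overlapped each other, and the double KO libraries lay below them all. An additive response would have left Neurog2 at 244 CPM in the double KO, close to its WT mean of 238 CPM, and the measured mean was 58.9 CPM. The interaction of Neurog2 was -2.05 (SE 0.23, 95% interval -2.53 to -1.57, edgeR adjusted p = 0.000328).

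Nhlh1, a bHLH factor made transiently by newly formed neurons, had the lowest edgeR adjusted p of all genes. Nhlh1 (chr1:172052292-172057573) was measured at 10.1, 13.8, 10.7, 13.03 and 16.2 CPM in the double KO and 53.2, 42.8, 51.5 and 55.2 CPM in Dmrt5 KO. In Dmrt3 KO, Nhlh1 was at 76.6, 66.4, 77.4, 82.8 and 65.4 CPM, and in WT at 81.98, 56.9, 77.8 and 63.4 CPM. Here too the double KO libraries were all lowest, and the Dmrt5 KO libraries were all below those of Dmrt3 KO and WT. The interaction was -2.06 (SE 0.21, 95% interval -2.501 to -1.62, edgeR adjusted p = 0.000235), with an additive level of 53.3 CPM and a measured double KO mean of 12.8 CPM.

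Neurog1, the close relative of Neurog2, averaged 12.4 ± 4.405 CPM in the double KO, 36.4 ± 2.53 CPM in Dmrt5 KO, 39.05 ± 7.07 CPM in Dmrt3 KO and 33.7 ± 7.28 CPM in WT (SD). The Neurog1 interaction was -1.77 (SE 0.32, edgeR adjusted p = 0.0265). The double KO libraries of Neurog1, at 7.29 to 18.1 CPM, all lay below the other 13, at 27.2 to 44.6 CPM. Its call was lost, with an edgeR adjusted p of up to 0.0876, when any 1 of 10 libraries was left out (WT 1, 3 or 4, Dmrt3 KO 1, 3 or 4, Dmrt5 KO 1, 4 or 5, or double KO 2). Neurog1 stands outside the rule for named genes and is given because it is the paralog of Neurog2.

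The promoters of 4 genes called below additivity are shown as examples because their windows differ in the motifs they hold. Each is the RefSeq sequence (GRCm38.p6) of 250 bases before an annotated start, 5′ to 3′ on the strand of the gene: Neurog2 at chr3:127632886-127633135 (plus strand), Nhlh1 at chr1:172057597-172057846 (minus strand), Neurod2 at chr11:98329646-98329895 (minus strand) and Sv2b at chr7:75220020-75220269 (minus strand). Capitals mark matches to CAGATG, an E-box bound by Neurog and Neurod factors, or to ACAATGT, a core of the site bound by DM-domain proteins, on either strand. Among the annotated starts of Sv2b, only that with a match in its window is printed.
Neurog2: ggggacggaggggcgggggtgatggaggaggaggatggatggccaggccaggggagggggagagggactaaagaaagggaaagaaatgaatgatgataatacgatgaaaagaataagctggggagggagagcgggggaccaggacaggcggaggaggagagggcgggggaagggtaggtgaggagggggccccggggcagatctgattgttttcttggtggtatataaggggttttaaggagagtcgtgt
Nhlh1: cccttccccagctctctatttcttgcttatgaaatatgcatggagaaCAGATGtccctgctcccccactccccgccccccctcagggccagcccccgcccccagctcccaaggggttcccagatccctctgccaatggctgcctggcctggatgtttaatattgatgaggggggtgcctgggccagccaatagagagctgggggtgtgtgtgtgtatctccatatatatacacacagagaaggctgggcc
Neurod2: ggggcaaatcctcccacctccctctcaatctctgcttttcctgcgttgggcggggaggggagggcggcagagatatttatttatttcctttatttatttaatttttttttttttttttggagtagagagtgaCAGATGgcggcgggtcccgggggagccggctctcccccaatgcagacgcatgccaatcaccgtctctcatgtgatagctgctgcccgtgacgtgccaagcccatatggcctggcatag
Sv2b: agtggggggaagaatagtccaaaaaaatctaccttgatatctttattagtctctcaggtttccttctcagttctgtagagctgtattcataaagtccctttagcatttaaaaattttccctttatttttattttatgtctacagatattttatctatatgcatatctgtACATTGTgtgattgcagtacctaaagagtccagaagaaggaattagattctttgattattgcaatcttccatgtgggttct

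RefSeq windows of 300 bases (250 before and 50 after the start) were found for 19 of the 23 called genes, 24 windows in all. CAGATG or its reverse complement CATCTG occurred in 5 of the 24 (20.8%: Cldn1, Gcg, Neurod2, Nhlh1 and Prr15), in 12.04% of 15050 windows of tested genes and in 17.2% of all 32851 windows. ACAATGT or its reverse complement ACATTGT occurred in 1 of the 24 (4.17%), at 1 of 4 annotated starts of Sv2b, in 1.48% of the windows of tested genes and in 2.96% of all windows. The 2 motifs do not overlap each other in the printed sequences. A match describes letters in the window and is not a measured binding site.

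Genes of the glutamatergic lineage held 6 of the 23 called interactions, among them Neurod6 with the largest in size. Of 17 tested members, those called below additivity were 6 (Neurod6, Neurod2, Slc17a7, Nhlh1, Neurod1 and Eomes), beside 0.142% of all tested genes, and 0 above. The median interaction over the 17 was -0.73 on the log2 scale. DESeq2 called 8 below, adding Rnd2 and Neurod4, beside 0.376% of all tested genes. The list did not move as a block: 6 of the 17 had a positive interaction, the highest being that of Tiam2 at 0.96 (95% interval 0.17 to 1.76). Among uncalled members, the T-box factor Tbr1 of early cortical neurons had -0.73 (95% interval -1.29 to -0.17), the vesicular glutamate transporter Slc17a6 -0.64 (95% interval -1.42 to 0.14) and the layer factor Bcl11b 0.50 (95% interval -0.44 to 1.44). None of 10 genes shared by neurons of most types, among them Tubb3, Dcx and Map2, was called, and their median interaction was -0.14; this last list was added after the values had been seen.

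Eomes, a T-box factor that marks intermediate progenitors of the glutamatergic lineage, was measured at 46.6, 47.1, 45.1, 42.4 and 62.3 CPM in the double KO and 161, 137, 178 and 179.5 CPM in Dmrt5 KO. In Dmrt3 KO, Eomes was at 209, 203, 227, 274 and 173 CPM, and in WT at 255, 142, 188 and 213 CPM. Its double KO libraries lay below all others by a wide margin, and the other genotypes overlapped. The interaction of Eomes (chr9:118478212-118486132) was -1.87 (SE 0.24, 95% interval -2.37 to -1.38, edgeR adjusted p = 0.00107), from an additive level of 178 CPM and a double KO mean of 48.7 CPM.

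Neurod1, which follows Neurog2 in newborn cortical neurons, averaged 7.67 ± 1.46 CPM in the double KO, 27.4 ± 2.97 CPM in Dmrt5 KO, 38.2 ± 10.3 CPM in Dmrt3 KO and 35.3 ± 5.99 CPM in WT (SD). The Neurod1 interaction was -1.95 (SE 0.27, edgeR adjusted p = 0.00286). Neurod2 and Neurod6, bHLH factors of postmitotic glutamatergic neurons, were nearly lost in the double KO. Neurod6 (chr6:55677822-55681263) had 6.02, 0.868, 0.979, 0.639 and 1.48 CPM in the double KO and 68.4, 37.4, 41.6 and 70.8 CPM in Dmrt5 KO. In Dmrt3 KO, Neurod6 was at 139, 148, 109.8, 149 and 96.99 CPM, and in WT at 177, 25.5, 98.5 and 97.1 CPM. WT replicate 2 was below the other WT libraries and every Dmrt5 KO library, yet above all 5 double KO libraries. The interaction of Neurod6 was -5.16 (SE 0.78, 95% interval -6.81 to -3.51, edgeR adjusted p = 0.00554), the largest in size among the called genes, and lay between -6.13 and -4.85 when any 1 library was left out.

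Neurod2 averaged 5.24 ± 2.897 CPM in the double KO, 63.4 ± 18.1 CPM in Dmrt5 KO, 127 ± 25.7 CPM in Dmrt3 KO and 114 ± 65.7 CPM in WT (SD). The Neurod2 interaction was -3.75 (SE 0.58, edgeR adjusted p = 0.00595). The vesicular glutamate transporter Slc17a7, which loads glutamate into synaptic vesicles, had 2.103, 2.24, 2.76, 2.68 and 2.46 CPM in the double KO and 18.2, 11.7, 16.3 and 17.02 CPM in Dmrt5 KO. In Dmrt3 KO, Slc17a7 was at 32.9, 22.4, 26.7, 35.4 and 23.9 CPM, and in WT at 39.2, 14.9, 28.2 and 25.1 CPM. The double KO libraries of Slc17a7 differed little from each other and all lay below the lowest library of the other genotypes. Its interaction was -2.76 (SE 0.32, 95% interval -3.43 to -2.08, edgeR adjusted p = 0.000465). Sv2b, a synaptic vesicle glycoprotein, averaged 0.385 ± 0.237 CPM in the double KO, 3.64 ± 0.702 CPM in Dmrt5 KO, 7.06 ± 1.38 CPM in Dmrt3 KO and 8.63 ± 4.48 CPM in WT (SD). The Sv2b interaction was -2.94 (SE 0.54, edgeR adjusted p = 0.0307). This call was lost without any 1 of 12 libraries (WT 3, Dmrt3 KO 1 to 4, all 4 of Dmrt5 KO, or double KO 2, 3 or 5), at an adjusted p of up to 0.0993.

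A second shape, likewise only descriptive, was seen in transcription factors whose single KO means lay above WT. Tfap2c, an AP-2 factor of cortical basal progenitor formation, had 25.1, 30.7, 30.7, 40.7 and 34.5 CPM in the double KO and 101, 75.9, 106 and 105 CPM in Dmrt5 KO. In Dmrt3 KO, Tfap2c was at 86.2, 63.9, 88.9, 106 and 65.8 CPM, and in WT at 79.03, 68.3, 72.2 and 71.9 CPM. The Dmrt5 KO and Dmrt3 KO ranges both overlapped the WT range and reached above it, and the double KO libraries all lay below it. Its additive level of 109 CPM exceeded the WT mean of 72.8 CPM, and the interaction was -1.76 (SE 0.23, 95% interval -2.23 to -1.28, edgeR adjusted p = 0.00134).

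Dbx1, a homeodomain factor of ventral pallial progenitors, also had both single KO means above WT. Dbx1 (chr7:49631499-49636849) was measured at 2.15, 3.52, 5.29, 3.79 and 3.24 CPM in the double KO and 8.95, 11.1, 10.6 and 10.3 CPM in Dmrt5 KO. In Dmrt3 KO, Dbx1 was at 10.04, 16.1, 10.99, 12.6 and 8.58 CPM, and in WT at 6.11, 7.74, 9.14 and 7.698 CPM. All double KO libraries lay below all others, and the Dmrt5 KO and Dmrt3 KO ranges reached above the WT range. The interaction was -2.11 (SE 0.31, 95% interval -2.77 to -1.45, edgeR adjusted p = 0.00554), with an additive level of 15.6 CPM against a double KO mean of 3.598 CPM. Dbx1 was the 1 called gene among 8 tested genes of the antihem and ventral pallium, beside 0.142% of all tested genes. The other members had interactions above 0, with Fgf15 at 0.02 (95% interval -0.74 to 0.78), Sfrp2 at 0.43 (95% interval -0.11 to 0.97) and Nrg3 at 0.62 (95% interval -0.14 to 1.38). Fgf15 and the secreted Wnt antagonist Sfrp2 rose in the double KO against WT.

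Tfap2e, an AP-2 factor known from the olfactory bulb, had 6.85, 2.47, 2.05, 0.980 and 2.77 CPM in the double KO and 14.6, 17.8, 10.2 and 14.3 CPM in Dmrt5 KO. In Dmrt3 KO, Tfap2e was at 15.5, 11.9, 10.8, 9.601 and 13.5 CPM, and in WT at 6.85, 5.92, 7.32 and 5.04 CPM. Its double KO and WT ranges overlapped, while both single KO ranges lay above every WT library. The interaction was -3.21 (SE 0.52, 95% interval -4.29 to -2.12, edgeR adjusted p = 0.00904), and it combines single KO means above WT with a double KO mean below it. Neither the Dmrt5 KO difference of 1.18 (edgeR adjusted p = 0.196) nor the Dmrt3 KO difference of 0.97 (edgeR adjusted p = 0.635) from WT was called. Without WT replicate 2 and Dmrt5 KO replicate 1 the adjusted p of the interaction was 0.0594.

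**Figure D3:**
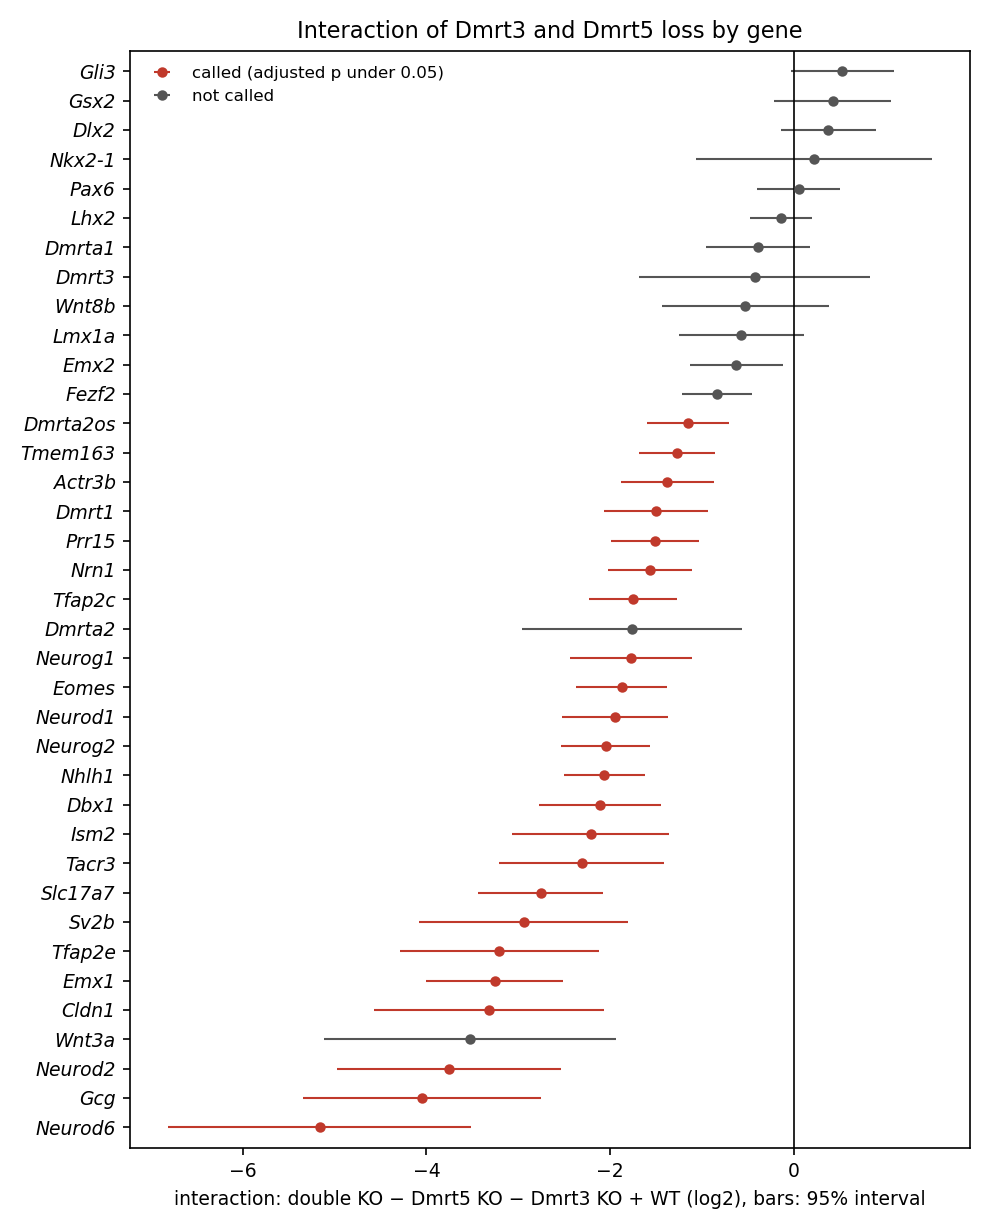
Interaction on the log2 scale (points) with its 95% interval (bars) for the 23 called genes (red) and for named patterning regulators and Dmrt genes that were not called (grey). The called intervals all end below 0, and the intervals of Lhx2, Pax6, Dlx2 and Gsx2 include 0; the values of Dmrt3 and Dmrta2 describe transcripts removed by design.

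Within the Dmrt family, 1 of 7 tested members was called, beside 0.142% of all tested genes. Dmrt1, a regulator of gonadal sex, lies beside Dmrt3 at chr19:25505618-25604329 and had 2.45, 2.51, 3.91, 3.49 and 2.93 CPM in the double KO and 2.42, 2.57, 2.87 and 2.52 CPM in Dmrt5 KO. In Dmrt3 KO, Dmrt1 was at 11.3, 12.46, 11.7, 10.2 and 9.397 CPM, and in WT at 2.59, 4.22, 3.94 and 2.55 CPM. Its Dmrt3 KO libraries all lay above those of every other genotype, and the other 3 genotypes overlapped. Dmrt1 rose in Dmrt3 KO against WT, by 1.73 (edgeR adjusted p = 0.000553) on the log2 scale, and showed no called difference in the double KO, at -0.11 (edgeR adjusted p = 0.876). The interaction was -1.497 (SE 0.27, 95% interval -2.06 to -0.93, edgeR adjusted p = 0.0265), lost at an adjusted p of up to 0.0830 without any 1 of 12 libraries (WT 1 or 4, Dmrt3 KO 1 to 4, all 4 of Dmrt5 KO, or double KO 1 or 2).

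Dmrta1, a DM-domain gene that no genotype targets, averaged 52.2 ± 14.2 CPM in the double KO, 58.6 ± 3.54 CPM in Dmrt5 KO, 52.1 ± 9.15 CPM in Dmrt3 KO and 44.7 ± 9.22 CPM in WT (SD). The Dmrta1 interaction was -0.39 (95% interval -0.96 to 0.18), not called. The antisense transcript Dmrta2os was called at -1.15 (SE 0.21, edgeR adjusted p = 0.0307). It is outside the rule for named genes and was chosen after its values were seen. It averaged 12.2 ± 1.77 CPM in the double KO, 20.02 ± 2.95 CPM in Dmrt5 KO, 16.995 ± 2.24 CPM in Dmrt3 KO and 12.6 ± 1.92 CPM in WT (SD), with the double KO mean close to WT and both single KO means above it. Dmrta2os starts beside Dmrta2 (chr4:109978053-109983687) on the opposite strand without overlap in GENCODE M21. The RefSeq starts of Dmrta2os lie inside Dmrta2, with a promoter window such as chr4:109979561-109979860. The annotation used for counting is not known and the library kit does not mark strand. Whether reads of Dmrta2 enter the Dmrta2os count was not tested. The call was lost, at an adjusted p of up to 0.127, without any 1 of 12 libraries (WT 1, 3 or 4, Dmrt3 KO 1, 3 or 4, Dmrt5 KO 1, 4 or 5, double KO 1, 2 or 5). The values of Dmrt3 and Dmrta2 themselves, at -0.43 (95% interval -1.68 to 0.83) and -1.76 (95% interval -2.96 to -0.56), concern transcripts that the genotypes themselves remove and are not read as interactions.

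The remaining called genes have varied functions. Cldn1, a tight-junction protein, averaged 0.611 ± 0.575 CPM in the double KO, 3.46 ± 1.17 CPM in Dmrt5 KO, 6.75 ± 1.59 CPM in Dmrt3 KO and 3.79 ± 0.917 CPM in WT (SD). The Cldn1 interaction was -3.32 (SE 0.60, edgeR adjusted p = 0.0265). Ism2, a secreted protein of the isthmin family, averaged 0.756 ± 0.291 CPM in the double KO, 2.97 ± 1.29 CPM in Dmrt5 KO, 4.56 ± 0.699 CPM in Dmrt3 KO and 3.85 ± 0.230 CPM in WT (SD). The Ism2 interaction was -2.21 (SE 0.41, edgeR adjusted p = 0.0307). Both calls were lost without 1 library in several cases, Cldn1 at an adjusted p of up to 0.0830 (WT 1 or 3, Dmrt3 KO 2, 3 or 4, Dmrt5 KO 1, 4 or 5, double KO 1 or 3) and Ism2 at up to 0.0950 (any WT library, Dmrt3 KO 1, 3 or 4, Dmrt5 KO 1, 4 or 5, double KO 2, 3 or 5).

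A further 6 called genes fell outside the rule for named genes and are given here after their values were seen. Nrn1, the membrane-anchored neurite protein neuritin, had 33.7, 38.7, 32.5, 23.1 and 39.6 CPM in the double KO and 75.6, 67.1, 61.98 and 77.8 CPM in Dmrt5 KO. In Dmrt3 KO, Nrn1 was at 67.7, 89.6, 80.98, 78.4 and 56.9 CPM, and in WT at 54.1, 54.5, 57.8 and 46.1 CPM. Its 5 double KO libraries lay below all WT libraries, and its Dmrt5 KO and Dmrt3 KO libraries lay above nearly all of them. The interaction of Nrn1 was -1.57 (SE 0.22, 95% interval -2.03 to -1.11, edgeR adjusted p = 0.00286). Prr15 averaged 2.32 ± 0.443 CPM in the double KO, 4.603 ± 0.648 CPM in Dmrt5 KO, 20.1 ± 1.32 CPM in Dmrt3 KO and 14.02 ± 2.74 CPM in WT (SD). The Prr15 interaction was -1.51 (SE 0.23, edgeR adjusted p = 0.00554). Its Dmrt5 KO difference from WT was also called, at -1.61 (edgeR adjusted p = 0.000173) on the log2 scale.

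Tmem163, a zinc-binding vesicle membrane protein, averaged 26.6 ± 3.31 CPM in the double KO, 49.4 ± 5.78 CPM in Dmrt5 KO, 49.4 ± 6.76 CPM in Dmrt3 KO and 38.1 ± 6.23 CPM in WT (SD). The Tmem163 interaction was -1.27 (SE 0.20, edgeR adjusted p = 0.00595). Actr3b, an actin-related protein, had -1.38 (SE 0.24, edgeR adjusted p = 0.0227), which was lost at an adjusted p of up to 0.0746 without any 1 of 6 libraries (WT 4, Dmrt3 KO 1 or 3, Dmrt5 KO 1, 4 or 5). Tacr3, the neurokinin B receptor, had -2.31 (SE 0.42, edgeR adjusted p = 0.0307), lost at up to 0.0993 without any 1 of 12 (WT 1, 2 or 3, Dmrt3 KO 1 to 4, all 4 of Dmrt5 KO, or double KO 3). Gcg, which encodes proglucagon, was scarce everywhere, with 0, 0.0913, 0.0445, 0.128 and 0.0390 CPM in the double KO and 1.04, 0.829, 0.438 and 0.480 CPM in Dmrt5 KO. In Dmrt3 KO, Gcg was at 1.05, 1.24, 0.813, 1.2002 and 0.647 CPM, and in WT at 0.739, 0.374, 0.846 and 0.521 CPM. The double KO libraries held 0 to 3 counts of Gcg each, against 7 to 35 counts in the other libraries, and the interaction was -4.05 (SE 0.61, edgeR adjusted p = 0.00554).

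Genes of the subpallium, in contrast, rose in the double KO without a called departure from additivity. Of 22 tested genes of the lateral ganglionic eminence and GABAergic lineage, 18 were called higher in the double KO against WT (2.42% of all tested genes). In the interaction edgeR called 0 of the 22 in either direction, beside 0.142% of all tested genes. At so low a share, 0 calls among 22 genes do not show that their effects were additive. The median interaction over the 22 was 0.36 on the log2 scale, with 20 above 0. Over all tested genes the median was -0.01, and 50.4% lay below 0. For Dlx2, a homeodomain factor of GABAergic progenitors, the levels were 511, 636, 530.3, 368 and 519.8 CPM in the double KO and 339, 391, 311 and 382 CPM in Dmrt5 KO. In Dmrt3 KO, Dlx2 was at 138, 241, 214, 182 and 160.2 CPM, and in WT at 159, 151, 215 and 149 CPM. The double KO ranged above both Dmrt3 KO and WT, and overlapped with Dmrt5 KO, whose libraries all lay above WT too. The single KO effects of Dlx2 summed to 1.23 on the log2 scale and the double KO effect was 1.61 (edgeR adjusted p = 2.59e-05). The interaction of Dlx2 was 0.38 (95% interval -0.14 to 0.89).

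Gsx2, the homeodomain factor at the top of this lineage, averaged 83.3 ± 15.98 CPM in the double KO, 58.02 ± 9.52 CPM in Dmrt5 KO, 33.9 ± 4.91 CPM in Dmrt3 KO and 31.7 ± 11.9 CPM in WT (SD). The Gsx2 interaction was 0.42 (95% interval -0.22 to 1.06). The highest interaction in the list was that of the zinc-finger factor Sp8, at 1.12 (SE 0.29, 95% interval 0.51 to 1.73, edgeR adjusted p = 0.212). DESeq2 called Sp8 above additivity, at 1.12 (adjusted p = 0.0345), and no other member. Gad2, a GABA-synthesising enzyme, had 0.79 (95% interval -0.01 to 1.59). The upper bounds for Dlx2, Gsx2, Sp8 and Gad2 ran from 0.89 to 1.73, so the absence of a positive interaction is not shown for these genes. In the medial ganglionic eminence, 6 of 8 tested genes were called higher in the double KO against WT (2.42% of all tested genes). In the interaction 0 of the 8 were called (0.142% of all tested genes). Nkx2-1, which specifies that region, varied widely between libraries and had 0.22 (95% interval -1.06 to 1.499).

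The cortical hem, the medial Wnt-producing border of the pallium, had 11 of 17 tested genes called lower in the double KO against WT, beside 3.81% of all tested genes. edgeR called the interaction for 0 of the 17, beside 0.142% of all tested genes. DESeq2 called it for 3, all below additivity (Wnt3a, Rspo3 and Rspo2), beside 0.376% of all tested genes. The median was -0.53 on the log2 scale. Wnt3a, the Wnt ligand that drives hippocampal development, was measured at 0.0978, 0, 0.0445, 0.724 and 0.0390 CPM in the double KO and 4.203, 1.95, 5.46 and 3.09 CPM in Dmrt5 KO. In Dmrt3 KO, Wnt3a was at 7.801, 6.67, 9.21, 8.68 and 7.93 CPM, and in WT at 12.53, 16.2, 14.4 and 11.6 CPM. Double KO replicate 4 held 17 counts and the other 4 held 0 to 2 counts, and the libraries of Dmrt5 KO, Dmrt3 KO and WT formed 3 rising ranges without overlap. The interaction of Wnt3a was -3.52 (SE 0.75, 95% interval -5.11 to -1.94, edgeR adjusted p = 0.106), so it was not called despite its size. Leaving out double KO replicate 4, the double KO library highest in the mesenchyme score, gave -5.46 (edgeR adjusted p = 0.000230), and without any other single library Wnt3a stayed uncalled. DESeq2 and limma-voom called Wnt3a with all libraries, at adjusted p = 1.68e-05 and 0.00395.

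Rspo3, a secreted enhancer of Wnt signalling, averaged 6.099 ± 1.82 CPM in the double KO, 26.6 ± 10.1 CPM in Dmrt5 KO, 43.1 ± 14.7 CPM in Dmrt3 KO and 48.5 ± 8.88 CPM in WT (SD). The Rspo3 interaction was -1.95 (SE 0.41, 95% interval -2.81 to -1.096, edgeR adjusted p = 0.0941). Rspo3 was called without Dmrt5 KO replicate 2 (edgeR adjusted p = 0.0224), without double KO replicate 4 (edgeR adjusted p = 0.0490) and by DESeq2 (adjusted p = 0.00138). The hem factor Lmx1a averaged 2.36 ± 1.04 CPM in the double KO, 5.08 ± 0.278 CPM in Dmrt5 KO, 13.1 ± 1.72 CPM in Dmrt3 KO and 18.9 ± 1.26 CPM in WT (SD). The Lmx1a interaction was -0.57 (95% interval -1.25 to 0.11), an interval that includes 0. Wnt8b had -0.53 (95% interval -1.44 to 0.38). Among 8 tested choroid plexus genes, 5 fell in the double KO against WT (3.81% of all tested genes) and 0 were called in the interaction by edgeR or DESeq2, with a median of -0.68. Of 12 diencephalic genes edgeR called 0, with a median of -1.14. Barhl2, a homeodomain factor of the diencephalon, had -1.58 (SE 0.35, 95% interval -2.31 to -0.85, edgeR adjusted p = 0.116). It was called by DESeq2 (adjusted p = 0.00374), without Dmrt3 KO replicate 5 (edgeR adjusted p = 0.0192), with the mesenchyme score (edgeR adjusted p = 0.0184) or length slope (edgeR adjusted p = 0.0316) in the model, and without the library of each genotype highest in mesenchyme (edgeR adjusted p = 0.0461).

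**Figure D4:**
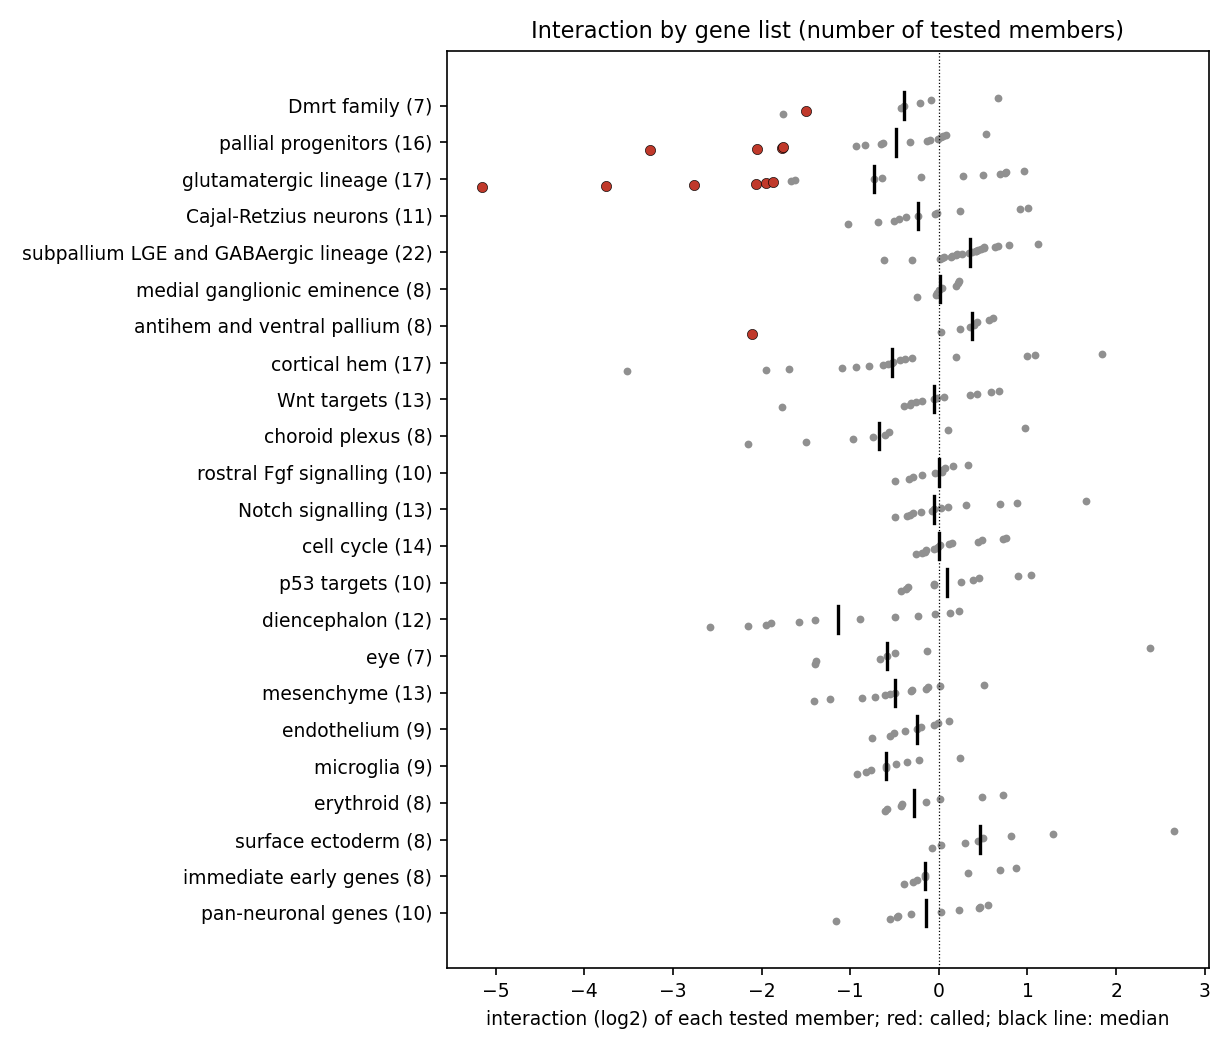
Interaction on the log2 scale of every tested member of 23 gene lists, with called genes in red and the median of each list as a black line. Red points stand in 4 lists, all at negative values, and the 22 subpallial genes cluster above 0 with a median of 0.36.

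The other lists gave 0 called genes in edgeR, beside 0.142% of all tested genes, and DESeq2 added the eye gene Dct below additivity. Their medians ran close to 0 for the cell cycle (14 genes, 0.00), Notch signalling (13 genes, -0.06), rostral Fgf signalling (10 genes, 0.00), Wnt targets (13 genes, -0.05) and p53 targets (10 genes, 0.10). Cajal-Retzius neurons, an early marginal zone type that arises partly from the hem, had a median of -0.24 over 11 genes. Among tissues that a dissection could carry along, medians were -0.49 for mesenchyme (13 genes), -0.25 for endothelium (9), -0.60 for microglia (9), -0.28 for erythroid cells (8), 0.47 for surface ectoderm (8) and -0.58 for the eye (7). Immediate early genes, which respond to handling, had -0.15 (8 genes). Lists without a call were each represented by the member with the lowest p. Folr1, the folate receptor of choroid plexus, had -1.502 (95% interval -2.65 to -0.35), and Il17rd, an Fgf signalling antagonist, had 0.33 (95% interval -0.38 to 1.03). Eda2r, a p53-induced receptor, had 1.04 (95% interval 0.05 to 2.02), and Esrp1, an epithelial splicing factor, had 2.65 (95% interval -1.15 to 6.46). With the mesenchyme score of each library as a covariate, 32 genes were called below additivity, 21 of the 23 among them.

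Among all genes called in the double KO against WT, few were called in the interaction, and for many of the lowered genes the interval was too wide to place them. Of 619 genes called lower in the double KO against WT, 20 were called in the interaction, and the 95% interval of the interaction lay wholly below 0 in 81 (13.1%) and wholly above 0 in 23. The median double KO effect of the 619 was -1.61 on the log2 scale, beside -1.45 for the median sum of the single effects. Of 393 genes called higher, 0 were called in the interaction, with medians of 0.96 for the double KO effect and 0.82 for the sum. Their interval lay wholly below 0 in 5 (1.27%) and wholly above 0 in 28 (7.12%). Over all tested genes, the shares were 1.83% below 0 and 7.39% above 0. The share above 0 among the raised genes was thus near that of all tested genes. The interval lay within 1 log2 unit of 0 on both sides in 141 of the 619 (22.8%), 236 of the 393 (60.1%) and 48.1% of all tested genes. These sets were chosen on the double KO, which the interaction contains, so the counts are descriptive.

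The excess of unadjusted positive interactions consisted largely of long transcripts. The median exonic length was 8254 bases over the 1190 of these 1200 genes with a length, against 2751 bases in those below additivity, 2594 bases in the 23 called genes and 4151 bases in all tested genes. The 66 genes that DESeq2 placed above additivity had a median of 8990 bases over the 62 with a length and included Dcc, Ptch1 and Slc8a1. Libraries differed in how strongly log2 CPM rose with log2 exonic length, from a slope of 0.69 in WT replicate 2 to 1.21 in double KO replicate 5 and 1.13 in WT replicate 4. With this slope as a covariate, genes at an unadjusted p under 0.05 numbered 799 in place of 1497. The DESeq2 calls were 18 above and 77 below, and edgeR called 1 above (Mbp) and 33 below, all 23 among them.

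Which genes were called differed between the log2 and the linear scale. On the linear CPM scale, where additivity means that differences in CPM add up, limma called 14 genes below and 2 above, and 12 of the 23 were among the 14. On this scale the interaction was -192 CPM for Neurog2 (limma adjusted p = 0.0265) and -73.8 CPM for Tfap2c (limma adjusted p = 0.0196). It was -41.6 CPM for Nhlh1 (limma adjusted p = 0.0265) and -10.6 CPM for Dbx1 (limma adjusted p = 0.0196). Emx1, at -81.0 CPM (limma adjusted p = 0.663), Eomes, at -133 CPM (limma adjusted p = 0.181), and Neurod1, Neurod2, Neurod6, Slc17a7 and Gcg were called on the log2 scale only. The 2 genes above additivity on the linear scale were the long non-coding RNA E330013P04Rik and Smoc1.

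Only 7 genes were called below additivity in each of the 34 other settings tried: Nrn1, Dbx1, Prr15, Neurog2, Tfap2c, Tmem163 and Nhlh1. In addition, Emx1, Eomes, Neurod1, Neurod2, Neurod6 and Slc17a7 were called in all settings run on a log2 scale, as was Gcg except that the stricter filter on low counts left it out of the test. None of the 23 genes took a positive interaction in any setting. Leaving out 1 library at a time, the number called below additivity ran from 15 (without Dmrt3 KO replicate 3, Dmrt5 KO replicate 1 or Dmrt5 KO replicate 5) to 31 (without double KO replicate 4), and 15 of the 23 kept their call without each library in turn. Without WT replicate 2, 7 genes were called above additivity, among them Dcc, Cbl and Hipk2. Without both libraries that held Xist and Y-linked transcripts, 17 genes were called below, 16 of them among the 23, and 0 above.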

How the data were processed

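Raw counts of reads per gene were deposited by the authors, 1 file for each of the 18 libraries and 38355 genes in each. The submitters' processing notes name the build mm10 and, without roles, DESeq2 1.8.2, featureCounts 1.4.6-p1, STAR 2.3.0e, CASAVA 1.8.2, FastQC 0.10.1 and bcl2fastq. For the counting, annotation release and strand setting were both not given in the sources used here. Per the labels' protocols, RNA was taken up with RNeasy columns and made into libraries with a kit that does not mark strand. Library totals were 19602718 to 33072896 counts, and their number limits the precision of low genes. Gene names, coordinates and exonic lengths came from GENCODE M21 (GRCm38), which matched 36602 of the genes. Unmatched identifiers held 0.397% of counts and were kept in the fits.

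The counts were fitted with edgeR 4.0.16 in R 4.3.3: filterByExpr, TMM scaling, 1 mean per genotype over all 18 libraries, the quasi-likelihood test of the interaction, and Benjamini-Hochberg adjustment over 16236 genes. The standard error was the size of the log2 value divided by the square root of its F. Alternatives were DESeq2 1.42.0, limma 3.58.1 with voom, other scalings and filters, covariates, the linear CPM scale and leaving out libraries. The scripts were tested on simulated data. Levels are CPM on TMM-scaled library sizes. The text names Dmrt3, Dmrta2 and Dmrta1, 15 regulators of forebrain patterning, the called genes largest in size of interaction (at most 12 in each direction, at log2 CPM of 1 or more on average), and per list up to 3 called members or, with none called, 1. Called genes outside this rule are said to be so, and further list members given as examples (such as Tbr1, Sox2, Sfrp2 or Gad2) were chosen after their values were seen. The members, the lists and the rule were chosen with earlier results of these data known. No file or library was left out of the main comparison.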

Additional observations from a re-analysis of the deposited data

Results flagged for a closer look

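Within each genotype, the highest or lowest library of each of 55 named genes was compared with the nearest other library by Dixon's gap, and 16 of 220 groups exceeded the 95% limit. Chance flags about 1 in 20 such groups. In the double KO, replicate 5 stood apart for Pax6 at 459 CPM (others 275 to 290.4 CPM), for Eomes at 62.3 CPM (others 42.4 to 47.1 CPM) and for the p53 target Eda2r at 2.89 CPM (others 0.929 to 1.47 CPM). Replicate 4 stood apart for Wnt3a at 0.724 CPM (others 0 to 0.0978 CPM), Cldn1 at 1.62 CPM (others 0.228 to 0.538 CPM), Il17rd at 85.1 CPM (others 38.9 to 51.1 CPM) and Esrp1 at 1.66 CPM (others 0 to 0.0489 CPM). These are the double KO libraries with the lowest and the highest mesenchyme score, and the part of mesenchyme in the values was not tested gene by gene. Double KO replicate 1 had 6.02 CPM of Neurod6 (others 0.639 to 1.48 CPM).

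In Dmrt5 KO, replicate 1 had 25.1 CPM of Dmrta2 (others 4.31 to 6.94 CPM) and 106 CPM of Emx1 (others 59.2 to 65.2 CPM), and it is 1 of the 2 libraries with both Xist and Y-linked transcripts. Dmrt5 KO replicate 2 had 0.829 CPM of Folr1 (others 2.04 to 2.27 CPM), and replicate 4 had 0.478 CPM of Esrp1 (others 0.0300 to 0.0494 CPM). In Dmrt3 KO, replicate 1 had 236 CPM of Emx1 (others 143 to 164 CPM). In WT, replicate 4 had 256 CPM of Gli3 (others 177 to 181 CPM), and replicate 3 had 215 CPM of Dlx2 (others 149 to 159 CPM) and 4.19 CPM of Ism2 (others 3.68 to 3.76 CPM). The interaction of Emx1 was called without each library in turn.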

How the results depend on the processing

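Genes called above and below additivity numbered 66 and 61 with DESeq2, 1 and 33 after adding length slope to the model, 2 and 14 on the linear CPM scale and, as an alternative chosen after seeing the data, 18 and 77 with DESeq2 and the length slope together. Without 1 library at a time they ran from 0 to 7 above and from 15 to 31 below. The other settings gave 0 above and 17 to 32 below, and the cause of these differences was not tested. With the replicate block, 29 genes were called below, 22 of the 23 among them. Same-numbered libraries of different genotypes correlated at 0.16 on average (lowest -0.36 over 24 pairs) and other-numbered ones at -0.04, and 4 of 18 libraries correlated best with their own number. The block raised the genes at unadjusted p under 0.05 to 3224, against 1497 without it. Since the labels tie no number to a litter or day, the fit without the block was kept. Of the values of single named genes in other settings, 1703 kept direction and side of the threshold, 124 lost the call, 21 gained it and 16 changed sign. On the linear scale, uncalled positive values were 15.2 CPM for Dmrt3, 55.7 CPM for Lhx2, 3.10 CPM for Lmx1a, 2.14 CPM for Wnt3a and 0.039 CPM for Wnt8b. Pax6 was -0.087 with the mesenchyme score, -0.22 with the length slope, -0.23 with DESeq2 and the length slope, -0.14 without double KO replicates 4 and 5, and from -0.12 (without double KO replicate 5; -0.021 without Dmrt5 KO replicate 1) to 0.12 without 1 library. Nkx2-1 was -0.031 with the mesenchyme score and from -0.040 (without Dmrt3 KO replicate 4) to 0.73 without 1 library. Hbb-bt, a globin gene, was 0.040 with the length slope in edgeR and 0.036 in DESeq2, and Esrp1 was -1.46 without double KO replicates 4 and 5. An interaction combines 4 means, so its median standard error of 0.32 exceeded the 0.22 of the double KO against WT, and moderate departures were not detectable.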
